A study of Mus musculus with 23 samples.

Results

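H3K27ac and H3K4me2, 2 modifications of histone H3, were compared within the lateral entorhinal cortex (LEC) of adult mice by setting the enriched regions of 1 mark against those of the other. The members were all LEC regions on the 19 autosomes, 87982 of the 90318 on all chromosomes of LEC and of 334051 regions in the full lists of the whole series. A region was classed as carrying both marks when it overlapped a LEC region of the other mark by at least 1 bp, and as H3K27ac only or H3K4me2 only otherwise. The classes were kept apart for enhancer regions, which the authors placed in a second list, and for the rest of each full list. The sources used here do not state how that second list was made, so the rest are called excluded regions.

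The series covers 4 cortical subregions of C57BL6J mice at postnatal day 56: LEC, medial entorhinal cortex (MEC), anterior cingulate cortex (ACC) and retrosplenial cortex (RSC). Tissue was taken from both hemispheres out of sections of 500 µm and frozen, and chromatin immunoprecipitation with sequencing was run with the same antibody lot per mark in every subregion, per the labels. The labels give 23 samples, of which 6 are LEC: 2 H3K27ac libraries, 2 H3K4me2 libraries and 2 inputs. MEC has 1 H3K4me2 library. No genotype or treatment differs between groups. The sources used here state neither the sex of the mice nor whether libraries came from separate or pooled animals. The lists hold no value per library and no read count, so the depth is unknown and no spread between libraries can be shown. The dissected area could not be set against marker genes, because the lists name no genes and no gene table of their build, mm9, was used here.

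H3K27ac is written by the acetyltransferases CBP and p300 and marks promoters and enhancers in use. H3K4me2 is laid down by methyltransferases of the MLL family and is found at promoters and enhancers both in use and held ready, so regions with H3K4me2 and without H3K27ac are commonly read as primed. LEC passes object and odour information between the neocortex and the hippocampus. The tissue is a mixture of neurons and glia: a mark in few cells and a weak mark in many cannot be told apart in such lists, and a region with both marks may carry them in different cells.

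Most regions carried both marks, and excluded regions did so more often than enhancer regions when width was left aside. At equal width this held in each width range for H3K27ac but not in each for H3K4me2, as given below. Of 22461 H3K27ac enhancer regions, 14157 overlapped H3K4me2, or 63.0% (Wilson 95% interval 62.4% to 63.7%), and 8304 had H3K27ac only. Of 28522 H3K4me2 enhancer regions, 16113 overlapped H3K27ac, or 56.5% (55.9% to 57.1%), and 12409 had H3K4me2 only. Among excluded regions, 14670 of 18558 with H3K27ac had both marks, or 79.0% (78.5% to 79.6%), and 3888 had H3K27ac only. With H3K4me2 it was 14157 of 18441, or 76.8% (76.2% to 77.4%), and 4284 had H3K4me2 only. The intervals cover counting error only, and these numbers describe the rule: 1 list per mark allows no test. The number 14157 occurs for 2 different sets of regions.

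**Figure D1:**
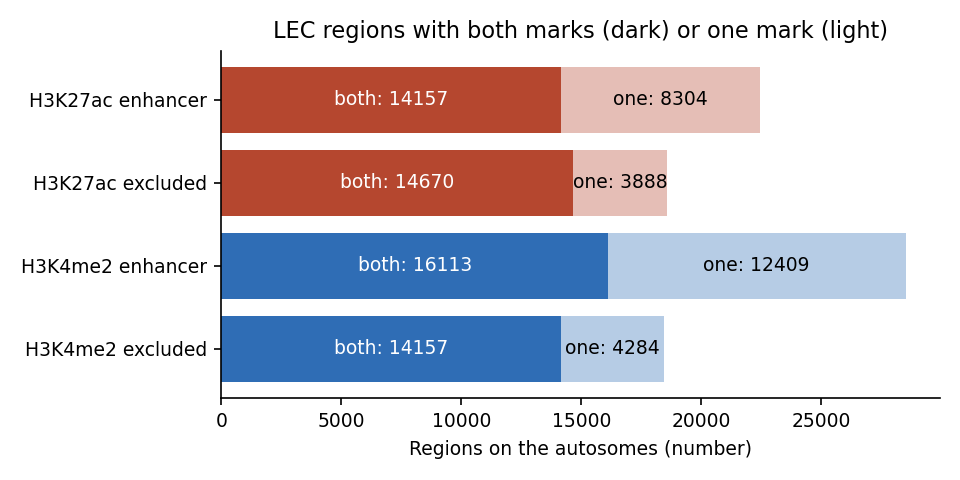
Number of LEC regions on the autosomes, by mark and list; the dark part of each bar counts regions that overlap the other mark by at least 1 bp and the light part counts the rest. The largest light part is that of the H3K4me2 enhancer regions, with 12409, and the smallest that of the H3K27ac excluded regions, with 3888.

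The classes were well separated at the 1 bp limit. Overlaps of under 250 bp in total made up 13 of the H3K27ac enhancer regions with both marks (0.0918%) and 15 of those with H3K4me2 (0.0931%), the smallest being 25 bp. On the other side, 17 H3K27ac-only enhancer regions (0.205%) and 25 H3K4me2-only ones (0.201%) lay under 250 bp from the other mark, and 3 of these touched it without overlap. Few one-mark regions were near misses at 1 kb. The other mark was within 1 kb of 142 of the H3K27ac-only enhancer regions (1.71%) and 145 of the H3K4me2-only ones (1.17%). Within 2 kb the numbers were higher, 782 (9.42%) and 755 (6.08%). For comparison, neighbouring regions of 1 mark were under 1 kb apart in 0.954% of gaps for H3K27ac and 0.524% for H3K4me2. The nearest H3K4me2 region was at a median of 9525 bp from an H3K27ac-only enhancer region, with quartiles of 3975 and 22850 bp. The nearest H3K27ac region was farther from H3K4me2-only enhancer regions, at a median of 15550 bp with quartiles of 5975 and 41350 bp. More than 100 kb separated the marks for 4.85% and 9.76% of these regions.

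Measured in bases, H3K27ac covered 147 Mb and H3K4me2 137 Mb of the autosomes, and 85.9 Mb carried both, which is 43.4% of the bases with either mark. Between the enhancer lists alone the shared share was lower, 29.9 Mb or 32.1% of either, and between the excluded regions it was 50.3 Mb or 45.5%. The marks nested in opposite ways in the 2 kinds of region. An H3K4me2 enhancer region with both marks was covered by H3K27ac over a median of 100% of its length, and 9325 of 16113 (57.9%) lay wholly under H3K27ac. An H3K27ac enhancer region with both marks was covered by H3K4me2 over a median of 79.8%, and 22.5% wholly. In excluded regions it was H3K27ac that lay under H3K4me2: 53.5% of the H3K27ac regions with both marks were wholly covered, against 21.1% of the H3K4me2 regions.

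The other mark's region was nearly always of the same kind. Of the H3K27ac enhancer regions with both marks, 13582 (95.9%) overlapped only enhancer regions of H3K4me2 and 551 (3.89%) only excluded ones. H3K4me2 enhancer regions crossed over more often, with 1730 of 16113 (10.7%) overlapping only excluded H3K27ac regions. An H3K27ac region also spanned several H3K4me2 regions more often than the reverse: 769 H3K27ac enhancer regions (5.43%) had 2 or more partners, up to 7, against 106 of H3K4me2 (0.658%), up to 3. In excluded regions these shares were 6.38% and 4.13%.

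Regions with both marks were wider than regions with 1 mark in all 4 lists. For H3K27ac enhancer regions the median width was 2500 bp with both marks (quartiles 1650 and 4050 bp) and 1825 bp with H3K27ac only (1250 and 2700 bp). For H3K4me2 enhancer regions it was 1850 bp (1400 and 2725 bp) against 1275 bp (1050 and 1625 bp). Excluded regions differed more: 3150 against 2300 bp for H3K27ac, and 3975 against 1900 bp for H3K4me2. A wide region meets the other mark more easily, so width enters the rule itself, and it is described without a test. With overlap required over 50% of a region's length, the difference for H3K27ac vanished: the median widths differed by 0 bp in enhancer regions and by -25 bp in excluded regions, while H3K4me2 regions with both marks stayed wider by 525 and 975 bp.

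The share with both marks rose through all 6 width ranges in each list. Among H3K27ac enhancer regions it was 39.4% under 1000 bp and 84.1% from 5000 bp up. Among H3K4me2 enhancer regions the climb was steeper, from 27.3% to 92.3%. Between 1000 and 1475 bp, which holds 9899 of the 28522 H3K4me2 enhancer regions, 39.8% had both marks. At 1500 to 1975 bp it was 64.5%, above the 58.9% of H3K27ac enhancer regions of that width. Excluded regions went from 42.5% to 89.8% with H3K27ac and from 27.2% to 92.0% with H3K4me2. At equal width, excluded H3K27ac regions had both marks more often than H3K27ac enhancer regions in each range, with intervals apart in all but the narrowest. The H3K4me2 curves of the 2 kinds ran close together, with shares of 27.2% and 27.3% in the narrowest range and 92.0% and 92.3% in the widest, and were farthest apart at 1500 to 1975 bp, with 59.4% of excluded and 64.5% of enhancer regions.

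**Figure D2:**
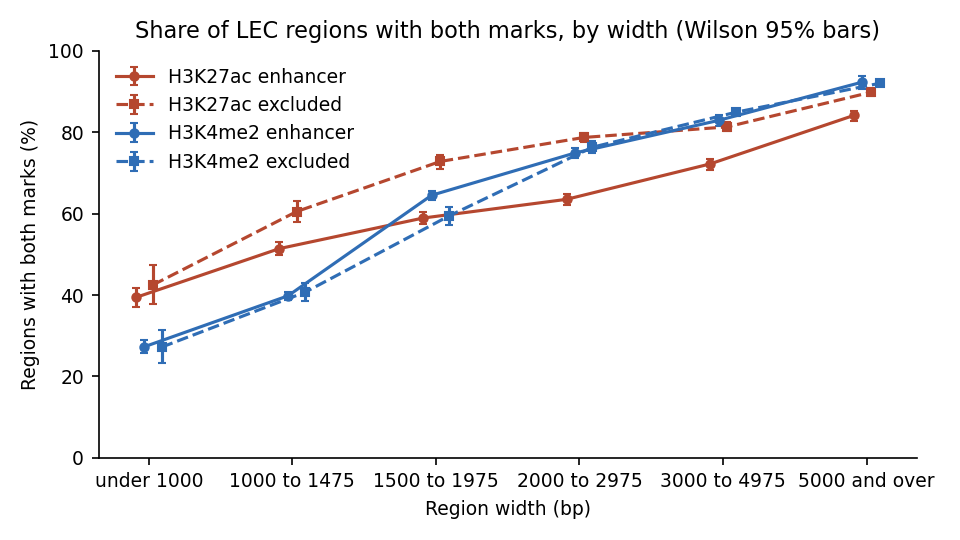
Percentage of LEC regions that overlap the other mark, by region width in bp; circles with full lines are enhancer regions, squares with broken lines excluded regions, and bars are Wilson 95% intervals. All 4 curves rise with width, and among regions of 1500 bp and more the H3K27ac enhancer regions have the lowest share, from 58.9% to 84.1%.

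Pairs in which each region overlapped exactly 1 region of the other mark gave the position of the marks relative to each other. Of these, 12643 joined enhancer regions of both lists and 12244 joined excluded regions. The other combinations were an H3K27ac enhancer region with an excluded H3K4me2 region (172 pairs) and an excluded H3K27ac region with an H3K4me2 enhancer region (726). Midpoints of enhancer pairs differed by a median of 200 bp (quartiles 87.5 and 500 bp), 56.9% lay within 250 bp and 9.83% at 1000 bp or more. Excluded pairs were farther apart, at a median of 362.5 bp (137.5 and 787.5 bp), with 39.7% within 250 bp and 18.7% at 1000 bp or more. Relative to the wider region of the pair the offsets were alike, at a median of 8.24% and 9.26% of its width. H3K4me2 lay to neither side in particular: its midpoint had the higher coordinate in 6121 enhancer pairs and the lower one in 6267, with 255 at the same place. In excluded pairs the numbers were 6152, 5921 and 171. Without gene annotation of this build, an offset could not be oriented to the direction of transcription.

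**Figure D3:**
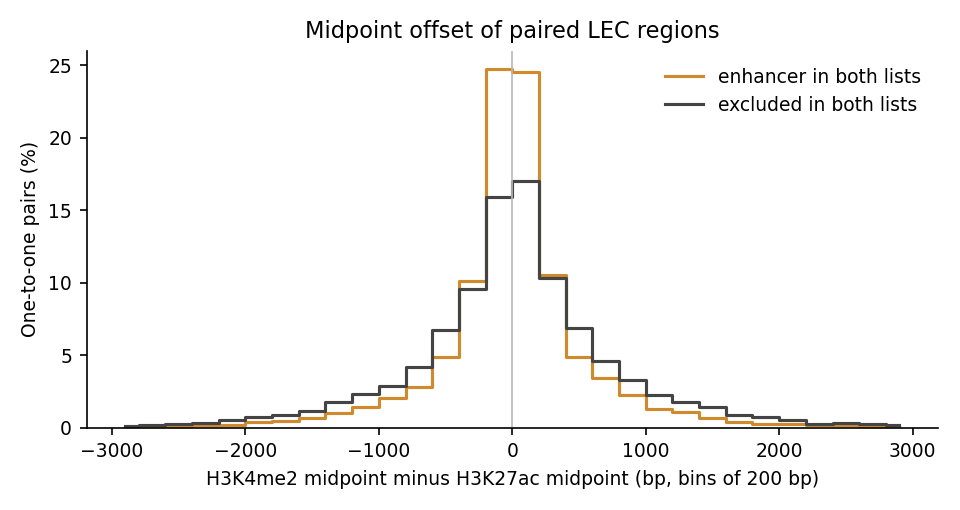
H3K4me2 midpoint minus H3K27ac midpoint, in bins of 200 bp, as a percentage of the one-to-one LEC pairs of each kind. Both curves are centred on 0; that of enhancer pairs, with a median offset of 200 bp regardless of side, is narrower than that of excluded pairs, with 362.5 bp.

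The wider mark of a pair depended on the kind of region. H3K27ac was the wider in 8446 of 12643 enhancer pairs, or 66.8% (66.0% to 67.6%), with median widths of 2400 bp for H3K27ac and 1825 bp for H3K4me2. In excluded pairs H3K4me2 was the wider in 8872 of 12244 (72.5%) and H3K27ac in 3296 (26.9%, 26.1% to 27.7%), with medians of 2875 bp for H3K27ac and 3850 bp for H3K4me2. The median ratio of H3K27ac to H3K4me2 width was 1.19 in enhancer pairs and 0.775 in excluded pairs. H3K4me2 lay inside H3K27ac in 50.8% of enhancer pairs and in 17.5% of excluded pairs. The opposite nesting held for 21.3% and 59.8%, and the rest were staggered but for 11 and 6 pairs of equal bounds.

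This contrast was present from 1500 bp up. Grouped by the wider region of the pair, H3K27ac was the wider in 52.5% of enhancer pairs and 37.6% of excluded pairs at 1500 to 1975 bp, and in 83.3% against 30.5% from 5000 bp up. At 1000 to 1475 bp the shares were 36.8% and 36.7%. Under 1000 bp there were 86 and 9 pairs, too few to compare. Offsets within a width range were close between the kinds, for example 175 bp in both at 2000 to 2975 bp and 837.5 against 787.5 bp from 5000 bp up.

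ACC and RSC, the subregions with 2 libraries per mark as in LEC, gave the same arrangement. The share with both marks was 63.6% (ACC) and 56% (RSC) in H3K27ac enhancer regions, beside 63.0% in LEC, and 60.1% and 54.8% in H3K4me2 enhancer regions, beside 56.5%. H3K27ac was the wider in 62.8% (ACC) and 66.0% (RSC) of enhancer pairs and in 34.3% and 26.5% of excluded pairs. The median offset of enhancer pairs was 200 and 212.5 bp. MEC, with 1 H3K4me2 library, stood apart: 35.5% of its H3K27ac enhancer regions had both marks, its H3K4me2 enhancer regions were under 1000 bp wide in 52.8% of those with both marks and 80.7% of those with H3K4me2 only, and its median enhancer offset was 300.0 bp. Its excluded H3K27ac regions had both marks in 86.6%, above the other subregions. The MEC H3K27ac list, from 2 libraries, was also shorter, with 22229 regions over 64.1 Mb against 41019 over 147 Mb in LEC. The part of list length in the MEC values was not tested. Each subregion has 1 list per mark, so differences between subregions were not tested.

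Enhancer regions with both marks lay nearer to excluded regions than those with 1 mark. The nearest excluded region of either mark was at a median of 24050 bp from H3K27ac enhancer regions with both marks (quartiles 7850 and 62175 bp) and 29162 bp from H3K27ac-only ones (9619 and 83081 bp). For H3K4me2 enhancer regions the medians were 21275 bp (5950 and 57125 bp) and 32650 bp (11575 and 88800 bp). More than 100 kb separated 15.7% of the H3K27ac regions with both marks and 21.3% of the H3K27ac-only regions, and 14.4% and 22.2% of the H3K4me2 regions, from any excluded region.

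Part of this difference lies in the classes themselves. A region that overlaps an excluded region of the other mark has both marks and a distance of 0 by definition, which applied to 575 H3K27ac regions (4.06%) and 1739 H3K4me2 regions (10.8%). Without these regions the medians still differed in the same direction, by -3175 bp for H3K27ac and -6250 bp for H3K4me2. When the classes were made from enhancer lists alone, so that such regions counted as one-mark regions, the difference was 150 bp for H3K27ac, with a 95% interval of -1125 to 1427 bp that spans 0, and 1250 bp for H3K4me2 (12.06 to 2476 bp). Distance also varied with width. The medians by width that follow keep the regions at a distance of 0 and were not recomputed without them. Part of each difference within a range can thus lie in the classes themselves. H3K4me2-only regions lay farther away than regions with both marks in each width range, at medians of 32712 against 19112 bp under 1000 bp, 35788 against 25250 bp at 1000 to 1475 bp and 33575 against 25000 bp at 1500 to 1975 bp. The difference was smaller in wider regions, with 25575 against 20688 bp at 2000 to 2975 bp and, for 82 H3K4me2-only regions of 5000 bp and over, 11988 against 11575 bp. For H3K27ac the medians were 26950 bp for one-mark regions and 22000 bp for regions with both marks under 1000 bp. Between 1000 and 1975 bp the order was reversed by a small amount. One-mark regions lay at 26650 bp and regions with both marks at 27562 bp at 1000 to 1475 bp. At 1500 to 1975 bp the medians were 26575 and 27025 bp. At 2000 bp and above one-mark regions were again farther away, at 31250 to 32625 bp against 20150 to 26175 bp with both marks.

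**Figure D4:**
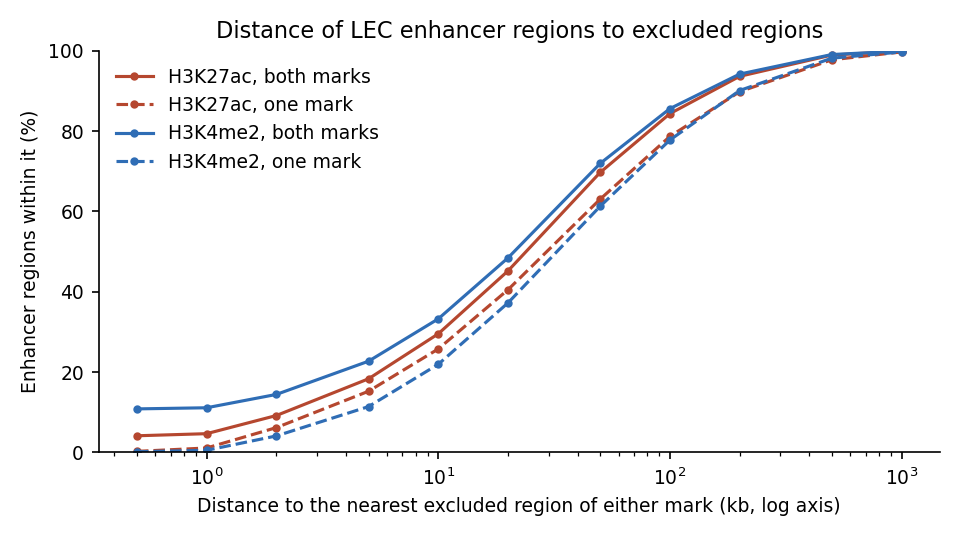
Percentage of LEC enhancer regions that lie within a given distance (kb, log axis) of the nearest excluded region of either mark; full lines are regions with both marks and broken lines regions with 1 mark. At 500 bp, the shortest distance drawn, the full lines stand at 4.146% (H3K27ac) and 10.84% (H3K4me2). Most of these regions overlap an excluded region of the other mark (4.06% and 10.8% of each class). The full lines stay above the broken lines at each distance drawn, by little at 1 Mb (99.91% against 99.7% for H3K27ac and 99.92% against 99.7% for H3K4me2).

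The lists of the other subregions come from libraries that took no part in the classes. They show whether a mark not listed at a region in LEC was listed there elsewhere. A region absent from a list may still carry the mark below the threshold, which is unknown. The sources used here do not say whether the subregions were taken from the same animals. The missing mark was listed far less often at one-mark regions than at regions with both marks. In ACC, H3K4me2 overlapped 66.9% of all LEC H3K27ac enhancer regions: 83.2% (82.6% to 83.8%) of those with both marks and 39.1% (38.0% to 40.1%) of those with H3K27ac only. In RSC it overlapped 54.5% of all, 69.8% with both marks and 28.4% with H3K27ac only. In MEC, whose lists of both marks are shorter, the shares were 24.9%, 33.6% and 10.0%. The difference had the same direction in 3 of 3 other subregions.

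H3K4me2-only regions showed a larger gap. In ACC, H3K27ac overlapped 59.5% of all LEC H3K4me2 enhancer regions: 82.1% (81.5% to 82.7%) of those with both marks and 30.2% (29.4% to 31.0%) of those with H3K4me2 only. In RSC it overlapped 45.5% of all, 66.3% with both marks and 18.6% with H3K4me2 only. In MEC the shares were 21.0%, 32.8% and 5.64%. Counted over the other subregions together, H3K27ac was listed in at least 1 of them at 65.6% of all, 88.9% of the regions with both marks and 35.3% of the H3K4me2-only regions. Thus 8031 of 12409 H3K4me2-only regions (64.7%) had H3K27ac listed in none of the 4 subregions. For H3K27ac-only regions the corresponding numbers were 75.5% of all, 91.8% and 47.7%, and 4341 of 8304 (52.3%) had H3K4me2 listed in none.

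The mark that defined the list recurred elsewhere with a smaller difference between the classes. H3K27ac in ACC overlapped 75.5% of all LEC H3K27ac enhancer regions, 80.7% of those with both marks and 66.6% of those with H3K27ac only. In RSC it overlapped 59.4% of all, 64.1% and 51.5% by class, and in MEC 26.4% of all, 30.9% and 18.6% by class. One-mark regions were therefore not confined to LEC: most H3K27ac-only regions were listed with H3K27ac in ACC too. H3K4me2 overlapped 76.1% of all LEC H3K4me2 enhancer regions in ACC, 82.5% with both marks and 67.8% with H3K4me2 only. In RSC it overlapped 60.6% of all, 67.7% and 51.4% by class, and in MEC 25.5% of all, 30.4% and 19.0% by class. Neither mark was listed in any other subregion at 19.2% of the H3K27ac-only and 18.5% of the H3K4me2-only enhancer regions.

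**Figure D5:**
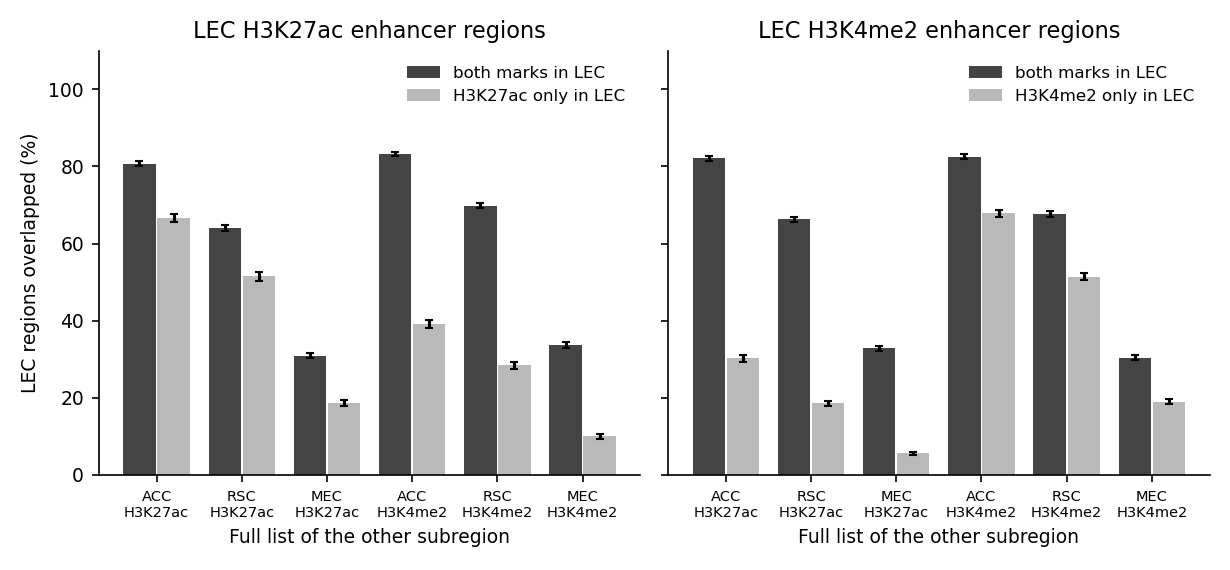
Percentage of LEC enhancer regions overlapped by the full lists of the other subregions, for regions with both marks (dark) and 1 mark (light) in LEC; bars show Wilson 95% intervals for counting error. Dark and light bars stand farthest apart for the mark that the one-mark regions lacked in LEC, as in ACC with 83.2% against 39.1% for H3K4me2 and 82.1% against 30.2% for H3K27ac.

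The difference in the missing mark was present at every width. In each of the 6 width ranges and in ACC, RSC and MEC alike, H3K4me2 overlapped LEC H3K27ac enhancer regions with both marks more often than H3K27ac-only regions, with intervals apart, by 17.0 to 50.8 points. For H3K27ac at H3K4me2 enhancer regions the range was 15.1 to 53.0 points, again with intervals apart throughout. Among H3K4me2 enhancer regions of 1000 to 1475 bp, for example, H3K27ac in ACC overlapped 74.5% of 3937 with both marks and 25.3% of 5962 with H3K4me2 only. The difference in the list's own mark was between -1.5 and 11.5 points for H3K27ac and between -2.5 and 12.4 points for H3K4me2 over the same ranges and subregions. Regions that neighbour each other are not independent, and these intervals carry nothing about variation between animals.

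When a LEC enhancer region was marked in ACC or RSC, its LEC class was the commonest class there. In MEC this held for the one-mark classes but not for regions with both marks. Of 9030 LEC H3K4me2-only enhancer regions with either mark in ACC, 58.5% had H3K4me2 alone there, 34.7% both marks and 6.78% H3K27ac alone. In RSC, 66.5% had H3K4me2 alone. Of 6058 LEC H3K27ac-only enhancer regions with either mark in ACC, 46.4% had H3K27ac alone, 44.8% both marks and 8.77% H3K4me2 alone, and in RSC 51.4% had H3K27ac alone. Exchange of 1 mark for the other was thus the rarest outcome among regions marked in ACC, and in RSC it was seen in 7.34% of the H3K4me2-only and 11.9% of the H3K27ac-only regions marked there. In MEC it was not the rarest: of 2025 H3K27ac-only regions marked there, 58.9% had H3K27ac alone, 23.7% H3K4me2 alone and 17.4% both marks, and of 2713 H3K4me2-only regions, 74.2% had H3K4me2 alone, 12.9% H3K27ac alone and 12.9% both. Of 15086 H3K4me2 enhancer regions with both LEC marks and either mark in ACC, 75.8% had both there. In MEC, 32.1% of the 7708 marked there had both, below the 36.4% with H3K27ac alone, and of 6832 H3K27ac enhancer regions with both LEC marks 33.8% had both and 35.9% H3K4me2 alone.

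Excluded regions recurred more widely than enhancer regions, and their one-mark regions carried the missing mark elsewhere more often. They were also wider, with one-mark medians of 2300 against 1825 bp for H3K27ac and 1900 against 1275 bp for H3K4me2. A wide region meets a list more easily, and recurrence of the 2 kinds was not compared at equal width. H3K4me2 overlapped 79.4% of all LEC H3K27ac excluded regions in ACC, 86.8% with both marks and 51.7% with H3K27ac only. In RSC the shares were 74.2%, 82.7% and 42.1%, and in MEC 66.4%, 75.2% and 33.0%. H3K27ac overlapped 74.9% of all LEC H3K4me2 excluded regions in ACC, 84.5% with both marks and 43.0% with H3K4me2 only. In RSC the shares were 66.8%, 77.3% and 31.8%, and in MEC 52.6%, 61.4% and 23.6%. The order of the classes was that of the enhancer regions in each subregion.

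Their own mark differed less by class in ACC. H3K27ac was listed at 83.3% of all LEC H3K27ac excluded regions in ACC, 84.5% with both marks and 78.6% with H3K27ac only. The gap was wider in RSC, with 74.3% of all, 77.6% and 62.0% by class, and in MEC, with 55.0% of all, 61.6% and 30.5% by class. H3K4me2 was listed at 84.4% of all LEC H3K4me2 excluded regions in ACC, 86.7% with both marks and 76.9% with H3K4me2 only. In RSC it was 78.1% of all, 82.2% and 64.7% by class, and in MEC 69.5% of all, 76.5% and 46.4% by class. In MEC, excluded regions with both LEC marks kept both more often than enhancer regions did: 55.5% of the excluded H3K27ac regions with both marks were listed with both in MEC, against 16.3% of the enhancer regions. Here too the kinds were not compared at equal width.

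Regions of a class were followed along the chromosomes in chains, in which midpoints of the same class were at most 100 kb apart. The chains of enhancer regions with both marks were counted on their H3K27ac regions. The chain with the most regions held 38 over chr13:42692576-43386675 (mm9, as all positions here) and the next 37 over chr3:51356151-52449700. In the first, H3K27ac covered 211 kb and H3K4me2 151 kb in LEC, and both marks were present over it in ACC (261 and 196 kb), RSC (299 and 181 kb) and MEC (140 and 40.0 kb). The second held 147 kb of H3K27ac and 142 kb of H3K4me2 in LEC, and less in MEC, with 28.3 and 39.4 kb. Single regions were least common in this class, at 14.5% of 14157, against 27.3% of H3K27ac-only and 22.2% of H3K4me2-only regions. The classes differ in number, which moves that share as well.

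H3K27ac-only enhancer regions formed 2 long runs in which H3K27ac outweighed H3K4me2 in each subregion. The first, chr2:6844601-7563175, held 32 of them, with 220 kb of H3K27ac and 22.7 kb of H3K4me2 in LEC. The same stretch had 241 and 29.6 kb in ACC, 253 and 29.2 kb in RSC, and 213 and 13.8 kb in MEC. It also holds the 2 widest H3K27ac-only enhancer regions, chr2:7142826-7168850 (26025 bp) and chr2:7170201-7195775 (25575 bp). Over the first of these H3K27ac covered 21.4, 20.5 and 23.2 kb in ACC, RSC and MEC, and H3K4me2 at most 1.62 kb. Over the second H3K27ac covered 23.9, 25.5 and 20.4 kb, and H3K4me2 at most 1.5 kb. The other run, chr9:112922326-113520725, held 30 such regions, with 258 kb of H3K27ac and 18.2 kb of H3K4me2 in LEC, 193 and 19.6 kb in ACC, 269 and 15.8 kb in RSC, and 208 and 3.33 kb in MEC. In both stretches H3K27ac therefore covered far more bases than H3K4me2 in each of the 4 subregions.

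H3K4me2-only runs were less one-sided. The largest by number of regions, chr5:118689876-119509375, held 27 H3K4me2-only enhancer regions, with 116 kb of H3K4me2 and 61.2 kb of H3K27ac in LEC, 136 and 89.7 kb in ACC and 103 and 65.2 kb in RSC. The next, chr8:117174176-118143175, held 26, with 44.5 kb of H3K4me2 and 9.95 kb of H3K27ac in LEC. There the balance was alike in ACC (48.1 and 18.9 kb) and RSC (27.4 and 8.93 kb), and in MEC 6.55 kb of H3K4me2 and 1.35 kb of H3K27ac were listed.

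The widest enhancer region with both marks was an H3K27ac region of 53250 bp at chr9:122492076-122545325, which spanned 7 H3K4me2 regions with 40.8 kb of H3K4me2. ACC listed H3K27ac over 51.5 kb of it and RSC over 40.2 kb, and MEC over 5.58 kb. The next, chr2:166943976-166983225, was 39250 bp wide with 4 H3K4me2 partners. RSC listed H3K27ac over all 39.2 kb and MEC over 23.5 kb, whereas ACC listed 35.3 kb of H3K4me2 and no H3K27ac there. The widest excluded regions with both marks were chr6:85986176-86059575 (73400 bp, with 7 H3K4me2 partners) and chr12:109184776-109250275 (65500 bp). In the latter a single H3K4me2 region covered 64.3 kb in LEC, and ACC listed 65.5 kb of H3K27ac and 61.8 kb of H3K4me2.

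The widest H3K4me2-only enhancer region, chr17:10414851-10428325 (13475 bp), was listed with neither mark in any other subregion. The next, chr8:122748776-122759575 (10800 bp), had H3K27ac in each of the others, over 10.8 kb in ACC, 10.7 kb in RSC and 4.2 kb in MEC. Among the 2 widest excluded regions of each one-mark class, some had the missing mark over most of their length elsewhere. The H3K4me2-only region chr13:54843676-54868975 (25300 bp) had H3K27ac over 23.4, 22.6 and 20.9 kb in ACC, RSC and MEC, and chr4:130347326-130372525 (25200 bp) over 23.5, 22.9 and 6.05 kb. The H3K27ac-only region chr14:71014401-71031525 (17125 bp) had H3K4me2 over 13.1, 13.0 and 8.93 kb. At chr1:129827501-129847225 (19725 bp), the widest H3K27ac-only excluded region, H3K4me2 covered less, 3.23, 7.08 and 0.8 kb.

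The enhancer regions farthest from any excluded region differed in how widely they were listed. The one with both marks, chr18:28234601-28237675 (3075 bp), lay 2193875 bp away and carried H3K27ac in all 4 subregions and H3K4me2 in LEC, ACC and MEC. An H3K4me2-only region on the same chromosome, chr18:28105476-28106725 (1250 bp), lay 2187675 bp away and was listed in LEC alone, as was the H3K27ac-only region chr14:91119151-91121500 (2350 bp), at 2246975 bp. The largest offset of an enhancer pair was 9700 bp: a 2025 bp H3K4me2 region, chr1:167021026-167023050, lay near the end of the H3K27ac region chr1:167001276-167023400 (22125 bp). The next was 7100 bp, between chr8:126295426-126314750 (H3K27ac, 19325 bp) and chr8:126309926-126314450 (H3K4me2, 4525 bp). In both pairs the small H3K4me2 region sat inside a wide H3K27ac region at its higher-coordinate end.

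The shares with both marks varied between the 19 autosomes. For H3K27ac enhancer regions they ran from 57.2% on chromosome 7 to 67.9% on chromosome 15, with a median of 62.9%, and for H3K4me2 enhancer regions from 51.9% on chromosome 10 to 62.4% on chromosome 7. Chromosome 7 was thus lowest for the first and highest for the second. The number of excluded regions per autosome followed the number of protein-coding genes (20665 in all, from the RefSeq table of GRCm38.p6, used for counts per chromosome). Pearson's r was 0.92 for excluded H3K27ac regions with both marks and 0.92 with H3K27ac only, and 0.92 and 0.84 for H3K4me2. For enhancer regions r was 0.44 with both marks and 0.72 with H3K27ac only, and 0.49 and 0.30 for H3K4me2. These are descriptions over 19 chromosomes that share libraries and differ in length.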

How the data were processed

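H3K27ac and H3K4me2 were profiled in LEC, ACC, RSC and MEC. Reads were aligned to mm9, and Bowtie 1.1.1 and bedtools 2.19.0 are named per the submitters' processing notes. The sources used here do not name the peak caller, its threshold or the way in which libraries were combined, although list names call the regions reproducible. The score the authors deposited in each LEC list was the width of the region in bp (0 exceptions), so it holds no enrichment. Positions lie on a grid of 25 bp and no LEC region is under 525 bp. Of 17 deposited lists, 16 were used; the other repeats the MEC H3K27ac enhancer list.

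Classes, widths, offsets, gaps and overlaps were computed with Python 3.11.15, numpy 2.4.6 and pandas 2.3.3, tested on simulated lists, and checked against bedtools 2.31.1. Overlap means at least 1 bp. Distances are gaps between region ends. Shares carry Wilson 95% intervals, medians carry 95% intervals from order statistics, and those of differences combine the 2 intervals; all cover counting error only. No test was made: each mark has 1 list per subregion with no value per library. Alternatives were overlap over 50% of the region (of both regions for pairs), gaps up to 500 bp and a least width of 1000 bp. Others were chromosome X added, partner lists of the same kind, enhancer lists of the other subregions and excluded regions of the own mark. Leaving out regions that overlap an excluded region was added after the data were seen.

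Named regions are the 2 widest of each class, the enhancer region of each class farthest from an excluded region, the 2 chains with the most regions per enhancer class and the 2 enhancer pairs with the largest offset. Regions named under other observations were picked from the widest one-mark regions that met the count given there. The members, lists and rules were chosen with earlier results of these data known. Coordinates are 1-based in mm9. No sequences or gene names are given, since the reference tables used here are of GRCm38.p6.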

Additional observations from a re-analysis of the deposited data

Results flagged for a closer look

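Chromosome X was outside the classes described above. Its LEC regions had both marks in 58.94% of 509 H3K27ac enhancer regions (Wilson 95% interval 54.61% to 63.13%) and 83.86% of 601 excluded ones (80.71% to 86.58%). With H3K4me2 the shares were 55.78% of 597 enhancer regions (51.77% to 59.71%) and 79.71% of 611 excluded ones (76.34% to 82.70%). They are listed here because signal was present in data that the comparisons left out.

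Among narrow enhancer regions, the difference in recurrence of a region's own mark, both marks minus 1 mark in points, took opposite signs in different subregions. For H3K27ac regions under 1000 bp it was 9.1 in ACC, 0.27 in MEC and -1.5 in RSC. For H3K4me2 regions it was 8.7 in ACC, 6.7 in RSC and -0.07 in MEC under 1000 bp, and 5.4, 1.1 and -2.2 at 1000 to 1475 bp. At 1500 to 1975 bp it was 6.6 in ACC, 2.5 in RSC and -2.5 in MEC. These differences between subregions were not tested. MEC has 1 H3K4me2 library; its part in the result was not tested.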

How the results depend on the processing

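Of 102 recomputed shares, medians and differences, 55 stayed within the 95% interval of the value reported, 44 moved beyond it and 3 changed sign; the cause was not tested except where stated. The 40 recomputed numbers of regions have no interval and changed by at most 1.4 times. Adding chromosome X, or counting the other mark within 500 bp, left 18 of 18 shares, medians and differences within their intervals, and chromosome X changed the numbers by at most 1.03 times.

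With overlap required over 50% of the region, the shares with both marks were 51.56% and 54.49% in H3K27ac and H3K4me2 enhancer regions and 70.9% and 67.5% in excluded regions. Width differences became 0 and -25 bp for H3K27ac enhancer and excluded regions, with intervals that span 0 (-55.9 to 35.36 and -128.1 to 65.14 bp), and 525 and 975 bp for H3K4me2. Pairs were kept only where the overlap was at least 50% of both regions, which itself limits how far midpoints and widths can differ. Offsets then fell to medians of 150 and 287.5 bp, and H3K27ac was wider in 62.42% of enhancer and 25.67% of excluded pairs. Recurrence differences (both marks minus 1 mark, in points, in at least 1 other subregion) were 7.551 for H3K27ac and 35.57 for H3K4me2 at H3K27ac enhancer regions, and 52.23 for H3K27ac at H3K4me2 enhancer regions.

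With partner lists of the same kind, the distance differences changed sign, to 150 bp for H3K27ac (95% interval -1125 to 1427 bp, which spans 0) and 1250 bp for H3K4me2 (12.06 to 2476 bp), since regions that overlap an excluded region then count as one-mark regions. Shares were 60.58% and 50.43% in enhancer and 74.49% and 75.78% in excluded regions. Width differences were 475 bp (H3K27ac excluded) and 525 bp (H3K4me2 enhancer), the excluded offset 400.0 bp and the share of excluded pairs with H3K27ac wider 28.83%. Recurrence differences were 40.79 for H3K4me2 at H3K27ac regions, and 45.37 for H3K27ac and 10.69 for H3K4me2 at H3K4me2 regions.

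With regions of at least 1000 bp, shares were 62.38% and 58.18% in enhancer regions, width differences 625, 525 and 1975 bp (H3K27ac enhancer, H3K4me2 enhancer, H3K4me2 excluded), and H3K27ac was wider in 68.41% of enhancer pairs. Recurrence differences were 10.18 and 42.02 for H3K27ac and H3K4me2 at H3K27ac regions, and 51.33 and 8.185 for H3K27ac and H3K4me2 at H3K4me2 regions. At 1000 to 2000 bp these were 6.058, 42.78, 50.86 and 5.919. With enhancer lists of the other subregions, 13.31 (H3K27ac at H3K27ac regions) and 48.79 (H3K27ac at H3K4me2 regions) moved. The distance difference was -9050 bp for H3K4me2 against its own excluded regions, and -3175 and -6250 bp without regions that overlap an excluded region.

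No paired analysis was possible because the lists hold no values per library. For the same reason no library was left out in turn, and sequencing depth, the share of cells with a mark and variation between animals were not measured.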

Other observations

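A closer look at wide one-mark regions was added after the named regions had been seen. A region was counted when the mark it lacked in LEC covered at least 50% of it in each of ACC, RSC and MEC. Among excluded regions of 5000 bp and over, this held for 99 of 465 H3K27ac-only regions (21.3%), beside 1066 of 4096 with both marks (26.0%). It held for 71 of 437 H3K4me2-only regions (16.2%), beside 1214 of 5032 with both marks (24.1%). Over all widths the classes were farther apart, at 18.6% and 42.9% for H3K27ac and 6.42% and 21.8% for H3K4me2.

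The examples that follow were picked from the widest one-mark regions that met this count, so they illustrate it and add no support. The H3K4me2-only excluded region chr13:54843676-54868975 had no H3K27ac listed in LEC, and H3K27ac covered 92.4% of it in ACC, 89.5% in RSC and 82.7% in MEC. At chr9:57785951-57803600 (17650 bp) H3K27ac covered 100% in ACC, 100% in RSC and 93.8% in MEC, and at chr12:88139351-88154225 (14875 bp) 100%, 100% and 97.6%. The H3K27ac-only excluded region chr19:46389026-46404600 (15575 bp) was covered by H3K4me2 over 100% in ACC, 98.4% in RSC and 62.3% in MEC. Coverage was lower at others, such as the H3K4me2-only region chr10:80750701-80768500, with 100% in ACC, 74.2% in RSC and 70.6% in MEC.

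The same count was made in ACC and RSC, which have 2 libraries per mark. For excluded H3K4me2-only regions of 5000 bp and over it was 114 of 565 in ACC (20.2%) and 118 of 445 in RSC (26.5%), beside 22.8% and 30.0% of those with both marks. For H3K27ac-only regions it was 13.3% in ACC and 18.7% in RSC, beside 19.0% and 27.8% of those with both marks. The LEC shares of 16.2% and 21.3% were thus the lowest of these 3 subregions for H3K4me2-only and the highest for H3K27ac-only regions.

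H3K4me2-only enhancer regions of that width were few: 11 of 82 (13.4%) in LEC had H3K27ac over at least 50% in each other subregion, beside 324 of 982 with both marks (33.0%). Wide H3K27ac-only enhancer regions rarely had H3K4me2 in this way, 5 of 459 (1.09%), as did 49 of 2419 with both marks (2.03%). The count also needed cover of 50% in MEC, which has 1 H3K4me2 library. H3K4me2 enhancer regions there had median widths of 950 bp with both marks and 700 bp with H3K4me2 only. Low shares in both classes thus cannot be read as a property of the one-mark regions.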
